A study of Zea mays with 4 samples.

Results

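The 5 genes described here are Atg8a, Atg8b and Atg8c, which encode the ubiquitin-like protein that coats the autophagosome membrane, and see1 and see2a, a pair of cysteine protease genes named for higher expression in senescing tissue (see stands for senescence enhanced). They were chosen by their NCBI gene numbers, which are GeneID:100240694 for Atg8a, GeneID:100240695 for Atg8b, GeneID:100240696 for Atg8c, GeneID:542451 for see1 (also named ccp2) and GeneID:542001 for see2a, and are 5 of the 48174 genes in the count table. Total RNA was sequenced from the last 1 mm of the root, with primary and seminal roots collected together, from 3-day seedlings of the maize inbred line B73 that had spent 2 h in swirled, aerated water at 28 °C. The study has this 1 group of 4 biological replicates and no seedlings outside water, so the values below compare genes with each other and replicates with each other, and cannot show a response to the water. The labels do not say whether each replicate came from its own batch of seedlings, so the spread between replicates may be partly technical.

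In macroautophagy a cell encloses part of its own cytoplasm in a double membrane, the autophagosome, and delivers it to the vacuole for breakdown. Atg8 is first trimmed by the protease Atg4 to expose a glycine, then activated by the E1-like enzyme Atg7, passed to the E2-like enzyme Atg3 and joined to the lipid phosphatidylethanolamine with the help of the Atg12-Atg5 conjugate. Plants carry several Atg8 genes, and Atg8 proteins are turned over together with the cargo they mark. In the vacuole, papain-type proteases such as the see1 product and legumains (vacuolar processing enzymes) such as the see2a product cut proteins and mature other hydrolases. Cystatins inhibit papain-type proteases.

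Library totals ran from 23385589 to 26829395 counts, which gave each of the 5 genes at least 162 counts in every library. Levels are in CPM (counts per 1e+06 counts of the library), and a gene with no count in a library could still have a level of up to 0.112 to 0.128 CPM there, taken as 3 counts and covering counting error only. All 5 division genes looked at (pcna1, RNRL1, MCM6, SMC3 and cycD2) were detected, that is, at 1 CPM or more in every library, and their summed level was 713 to 765 CPM. Of the root genes, SCR and PIN1a were detected, rtcs was at 0, and the gene listed as plt1, which also carries the name PLTP, had at most 0.224 CPM. Of 4 photosynthesis genes in the table, CAB1 stayed under 1 CPM and ssu1 at 0, while C4ppdkZm1, also listed under a cytosolic name, reached 388 ± 44.0 CPM and ME1 14.1 ± 2.14 CPM (SD, n = 4). None of 4 seed storage genes was detected, and their summed level was 0.727 to 1.32 CPM. Of 5 genes of the secondary wall and xylem, 2 were detected, with a summed level of 5.74 to 8.27 CPM over the 5. Of 5 senescence marker names, 1 was found in the table: SGR1, a stay-green gene of chlorophyll breakdown, at 1.75 to 2.30 CPM.

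All 5 genes were expressed in these root tips. All 5 were detected, beside 43.5% of all genes in the table. The see1 gene stood far above the others at 263 ± 11.5 CPM (SD, n = 4), rank 565 among the 48174 genes. Atg8b followed at 41.4 ± 4.63 CPM, Atg8c at 36.6 ± 2.13 CPM, Atg8a at 24.4 ± 1.22 CPM and see2a at 7.08 ± 0.219 CPM. Of the 4 steps in this order, 3 separated genes whose ranges over the libraries did not overlap, and the step between Atg8b and Atg8c did not. No transcript lengths were at hand, so the comparison between genes is of reads captured per gene, and a longer transcript yields more reads at the same number of molecules.

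**Figure D1:**
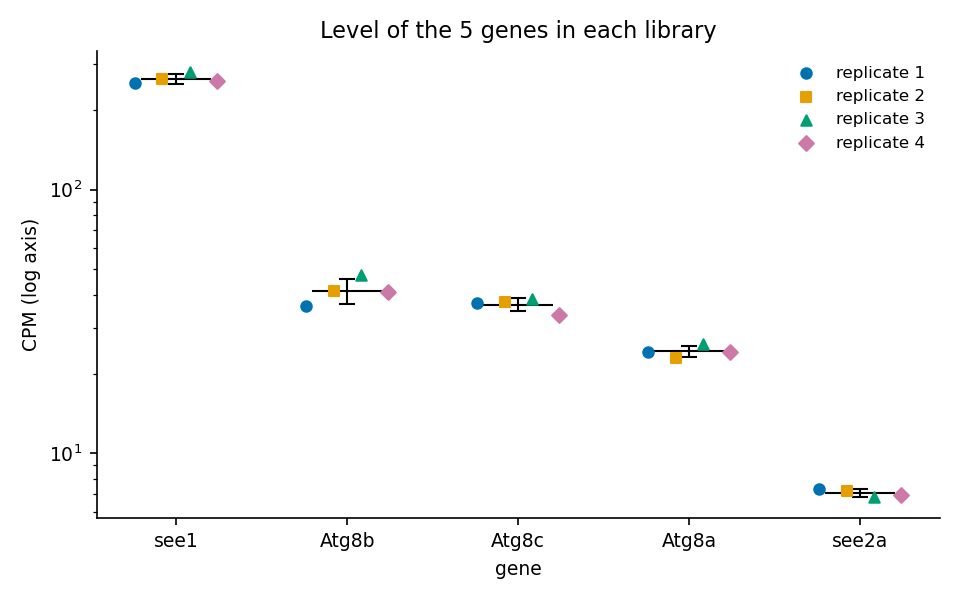
CPM of each gene (log axis) in each of the 4 libraries, with genes in order of mean level; points are libraries, horizontal marks are means and bars are 1 SD (n = 4). The see1 points lie at 253 to 279 CPM, the Atg8b and Atg8c points overlap between 36.1 and 38.4 CPM, and the see2a points lie at 6.86 to 7.31 CPM.

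Atg8b stood at 36.1, 41.2, 47.4 and 40.8 CPM in replicates 1 to 4, from 944, 999, 1272 and 953 counts. Replicate 3 was the highest and replicate 1 the lowest, a wider range than that of either other paralog. Atg8c stood at 37.0, 37.6, 38.4 and 33.6 CPM, with replicate 4 below the rest. Atg8a stood at 24.2, 23.0, 26.0 and 24.2 CPM, and its highest value lay below the lowest value of Atg8b and of Atg8c. The 3 genes ranked at percentiles 81.9 (Atg8b), 80.1 (Atg8c) and 73.2 (Atg8a) of the 32260 genes with a count.

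Atg8b and Atg8c each gave more reads than Atg8a in all 4 libraries. The log2 ratio of Atg8b to Atg8a was 0.58, 0.84, 0.87 and 0.75 in replicates 1 to 4, with a mean of 0.76 ± 0.13 (SD, n = 4), a 1.69-fold ratio. For Atg8c to Atg8a the log2 ratio was 0.61, 0.71, 0.56 and 0.47, with a mean of 0.59 ± 0.10, a 1.50-fold ratio. Each mean ratio was several times its SD between libraries. Within libraries the paired counts differed beyond counting error in all 4 libraries for each of these pairs, with adjusted p from 2.66e-38 to 7.02e-15 for Atg8b against Atg8a and from 4.42e-20 to 3.72e-09 for Atg8c against Atg8a (two-sided exact binomial tests, adjusted over 16 tests by Benjamini-Hochberg).

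Atg8b and Atg8c could not be put in order. Their log2 ratio was -0.04, 0.13, 0.30 and 0.28 in replicates 1 to 4, with a mean of 0.17 ± 0.16 (SD, n = 4), so the mean was about as large as its spread. In replicate 1 Atg8c was above Atg8b, and in the other libraries Atg8b was above Atg8c. The counts differed beyond counting error in replicates 3 and 4 (exact binomial adjusted p = 6.12e-07 and 6.98e-05) but did not pass in replicates 1 and 2 (exact binomial adjusted p = 0.599 and 0.0524).

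The order of the other pairs did not rest on any single library, though no pair could pass 0.05 over libraries. A two-sided exact permutation test that flips signs over 4 libraries cannot go below p = 0.125, given by 2 of 16 patterns. The pairs Atg8b over Atg8a, Atg8c over Atg8a and see1 over see2a each reached that value (adjusted p = 0.167 over the 4 pairs compared). Atg8b over Atg8c gave an exact permutation p of 0.25, which the adjustment left at 0.25.

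**Figure D2:**
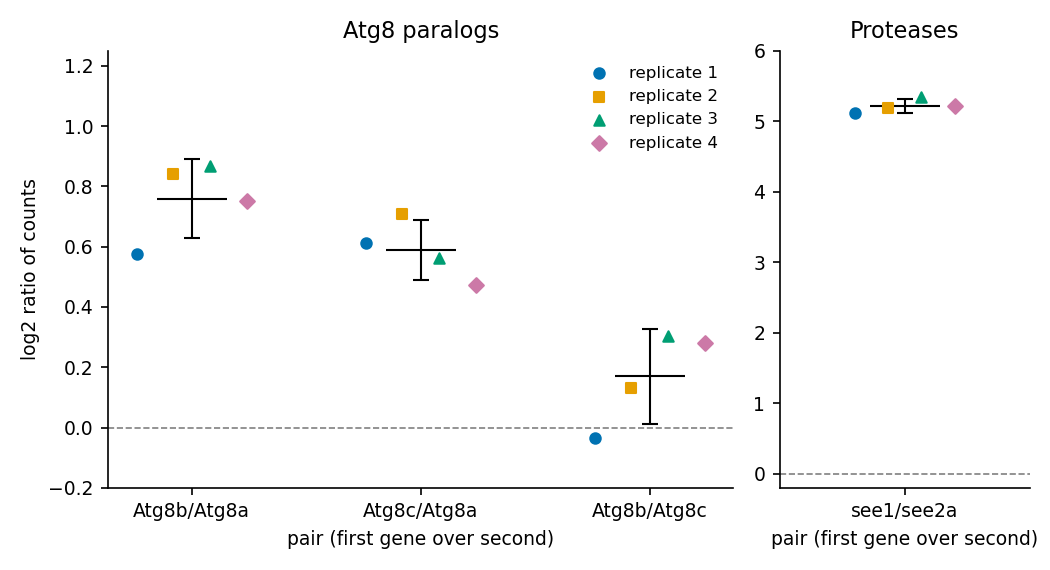
Log2 ratio of counts for each pair (first gene over second) in each library, for the Atg8 paralogs on the left and the proteases on the right, where the vertical scale is wider; horizontal marks are means, bars are 1 SD (n = 4) and dashed lines mark equal counts. The Atg8b/Atg8c points run from -0.04 to 0.30 and cross the dashed line, whereas all Atg8b/Atg8a and Atg8c/Atg8a points lie above it and the see1/see2a points lie between 5.11 and 5.35.

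As shares of the counts of these 3 paralogs, Atg8b held 40.3 ± 2.30%, Atg8c 35.8 ± 1.95% and Atg8a 23.8 ± 1.08% (SD, n = 4). The share of Atg8b was 37.1% in replicate 1 (Wilson 95% interval 35.2 to 39.0%) and 42.4% in replicate 3 (Wilson 95% interval 40.7 to 44.2%), so these intervals did not overlap. The share of Atg8c was 38.0% in replicate 1 (Wilson 95% interval 36.2 to 39.9%) and 34.1% in replicate 4 (Wilson 95% interval 32.2 to 36.0%), which also did not overlap. For Atg8a the shares lay between 22.6% in replicate 2 and 24.9% in replicate 1, with overlapping Wilson 95% intervals (21.0 to 24.3% and 23.2 to 26.6%). In percentage points, the shares of Atg8b and Atg8c had a larger SD between libraries than the share of Atg8a, which is also the smallest share. The intervals compared were those of the lowest and highest library of each gene, picked after they were seen. The intervals cover counting error only.

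The table holds a further pair of paralogs, Atg8e at 18.5 ± 1.28 CPM and Atg8d at 15.6 ± 1.18 CPM (SD, n = 4). Atg8a was above Atg8e, and Atg8e above Atg8d, in 4 of 4 libraries, with no overlap between neighbours' ranges. The 5 Atg8 genes summed to 132, 138, 146 and 130 CPM in replicates 1 to 4. Atg8a, Atg8b and Atg8c together held 75.0 ± 1.51% of that sum. Of the 20 values of the 5 genes described here, 19 were whole numbers within a tolerance of 0.001, and the other was the Atg8c count of 911.5 in replicate 2. Over all genes, 5.17 to 5.64% of the nonzero values of a library were not whole, so the 5 genes were much like the table in this. Neither the labels nor the headers say how reads matching several paralogs were counted, so the split among Atg8 genes may carry an error that these values do not show.

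By CPM, Atg8a, Atg8b and Atg8c lay in the middle and upper part of the named autophagy genes, and Atg8d lay below the median of that list. Of 15 such genes in the table, 14 were detected, and the list's median was 4.29 on the log2(CPM + 1) scale, against 0.37 over all genes, of which 43.5% were detected. The gene not detected is a transcribed pseudogene that shares the name Atg4a and had 1 count in all. In reads per gene, not corrected for transcript length, Atg7, the E1-like enzyme, came first at 48.6 ± 2.84 CPM (SD, n = 4). It was followed by atg6, a subunit of the lipid kinase complex that starts the autophagosome, at 42.8 ± 2.04 CPM, and by Atg8b. Next came atg9, a membrane protein of the growing autophagosome, at 40.8 ± 1.62 CPM. The order of these genes by number of molecules may differ. Atg8b overlapped Atg7, atg6 and atg9 in range over the libraries, although Atg7 was above Atg8b in each library, and its place beside atg6 and atg9 was not resolved.

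Of the enzymes that act on Atg8, Atg4a, Atg4b and ATG3 lay well below Atg7 in reads per gene. The Atg4 proteases stood at 19.6 ± 1.22 CPM for Atg4a and 14.7 ± 1.12 CPM for Atg4b (SD, n = 4), below Atg8a in every library. ATG3, the E2-like enzyme for Atg8, stood at 18.3 ± 0.944 CPM. The lowest detected genes of the list belong to the Atg12 conjugation system, which also uses Atg7, with Atg12 at 12.8 ± 0.407 CPM, its target atg5 at 8.73 ± 0.613 CPM and its E2-like enzyme Atg10 at 5.19 ± 0.802 CPM. Upstream regulators of autophagy were detected too, at 180 ± 4.40 CPM for the gene named TOR, after a kinase that represses autophagy when nutrients are ample, and at 43.0 ± 4.20 CPM for SnrK1, an energy-sensing kinase gene. The remaining gene of that list, akin1, was at 91.7 ± 2.29 CPM.

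**Figure D3:**
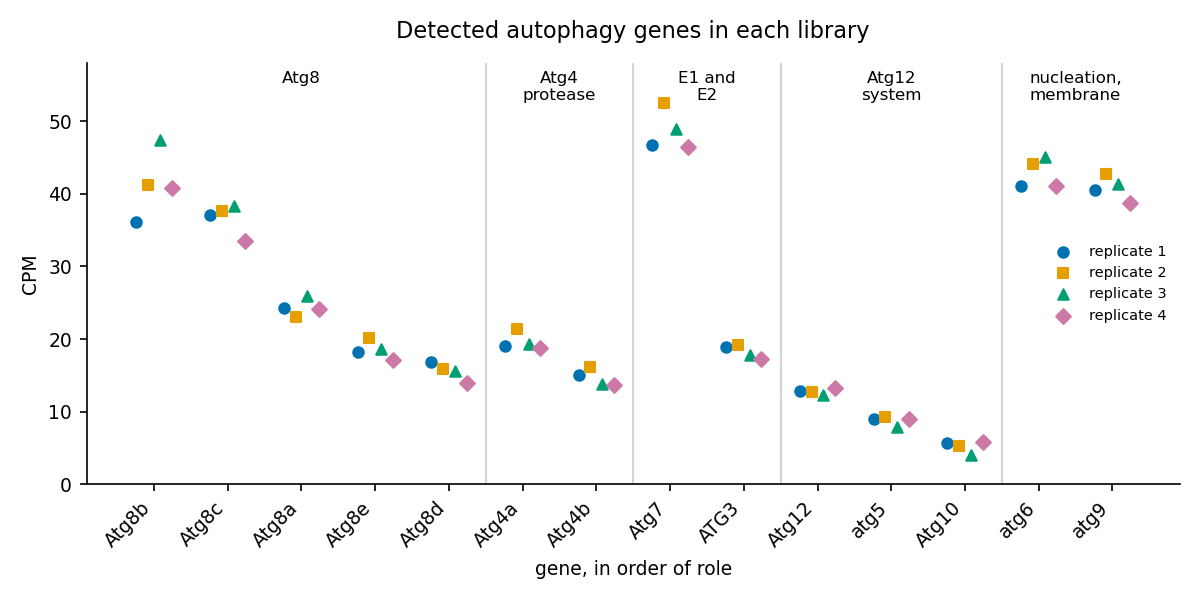
CPM of the 14 detected autophagy genes in each library, with genes grouped by role from the Atg8 paralogs on the left to the genes of autophagosome nucleation and membrane on the right; points are libraries. Atg8b, Atg8c, Atg7, atg6 and atg9 lie at 33.6 CPM or above in every library, and Atg12, atg5 and Atg10 lie at 13.3 CPM or below.

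The papain-type gene see1 far exceeded the legumain gene see2a. The see1 level was 253, 262, 279 and 258 CPM in replicates 1 to 4, from 6033 to 7490 counts, with replicate 3 highest. The see2a level was 7.31, 7.22, 6.86 and 6.93 CPM, from 162 to 191 counts, with replicate 3 lowest. The log2 ratio of see1 to see2a was 5.11, 5.18, 5.35 and 5.22, with a mean of 5.22 ± 0.10 (SD, n = 4), a 37.1-fold ratio. Of the summed counts of this pair, see1 held 97.2% in replicate 1 (Wilson 95% interval 96.8 to 97.6%) and 97.6% in replicate 3 (Wilson 95% interval 97.2 to 97.9%), the lowest and highest of the 4 libraries. The see1 gene stood at percentile 98.3 of genes with a count and see2a at percentile 52.5.

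Among named papain-type genes see1 gave the most reads in every library and held 52.7 ± 0.460% of the counts of the 5 (SD, n = 4). It was followed by mir3 at 128 ± 7.06 CPM and ccp1 at 98.7 ± 3.19 CPM. The mir1 gene, named for maize insect resistance and encoding a cysteine protease, had 4 counts in all 4 libraries and was the only gene of the 5 below detection. Of the 3 named legumain genes, see2a was the highest, with 59.6 ± 1.93% of their counts. Its paralog see2b stood at 4.61 ± 0.447 CPM, below see2a in every library, and vpe1 was not detected at 0.189 ± 0.0200 CPM.

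The cystatin genes, whose products inhibit papain-type proteases, were detected in 7 of 10 cases, beside 43.5% of all genes. The highest levels were those of psei2 at 38.1 ± 4.86 CPM, psei1 at 33.5 ± 1.37 CPM and cc4 at 28.7 ± 0.448 CPM (SD, n = 4). All 10 together gave 156 ± 8.45 CPM. The see1 count was 1.69, 1.62, 1.70 and 1.75 times the summed cystatin counts in replicates 1 to 4. The 5 named papain-type genes together gave 499 ± 20.5 CPM. These values compare reads without correction for transcript length, so they do not give a ratio of molecules.

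The other genes listed under senescence were low beside see1. Of 5 genes in that list, which includes see1 and see2a, 4 were detected, beside 43.5% of all genes. SGR1 stood at 1.98 ± 0.262 CPM (SD, n = 4), and SGR2, its paralog, was not detected at 0.217 ± 0.0402 CPM. The summed CPM of the list was 267 to 293, of which see1 alone gave 253 to 279 CPM.

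**Figure D4:**
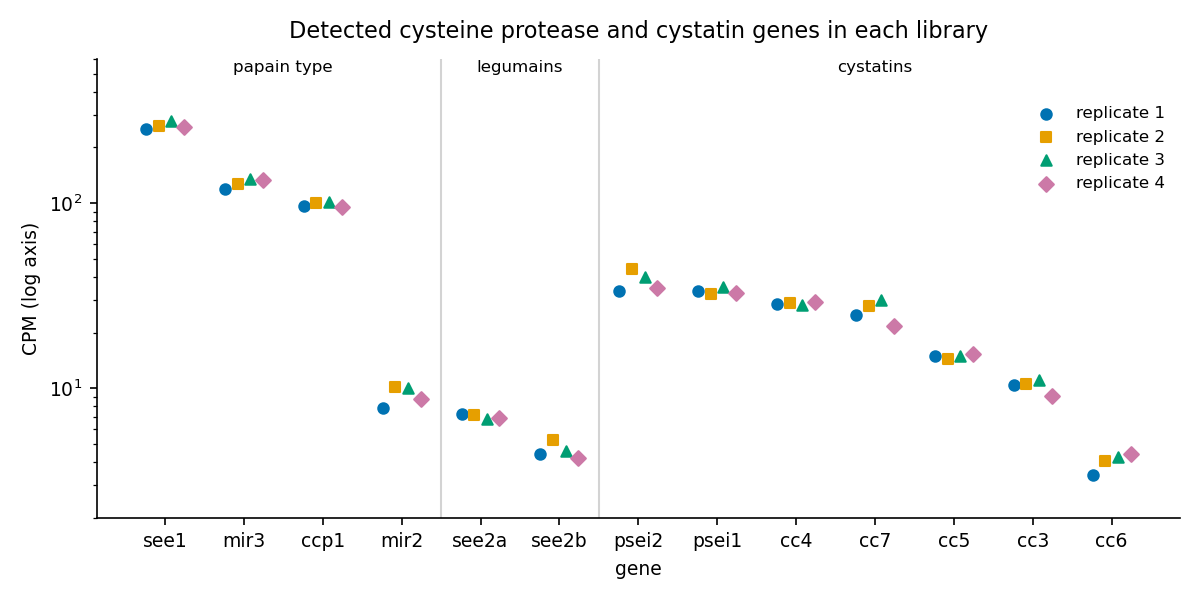
CPM (log axis) of the detected papain-type protease, legumain and cystatin genes in each library; points are libraries. The see1 points at 253 to 279 CPM lie above all others, the see2a points lie at 6.86 to 7.31 CPM, and the highest cystatin point, psei2 in replicate 2, lies at 44.1 CPM.

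Of the 5 genes, Atg8b had the widest spread between replicates. Its coefficient of variation was 11.2%, against 5.80% for Atg8c, 5.02% for Atg8a, 4.36% for see1 and 3.09% for see2a. Counting error alone would give 3.10% for Atg8b, 3.29% for Atg8c, 4.04% for Atg8a, 1.23% for see1 and 7.50% for see2a. Atg8b and see1 varied beyond counting error (chi-square test, Benjamini-Hochberg adjusted over 22752 genes, adjusted p = 3.48e-08 and 1.65e-08). Atg8c, Atg8a and see2a did not pass (chi-square adjusted p = 0.102, 0.306 and 0.966). The same test called 25.7% of all genes tested.

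The call on see1 rested on replicate 3, and the call on Atg8b did not. Without replicate 3 the chi-square adjusted p was 0.21 for see1 and 0.0326 for Atg8b. Leaving out replicate 1, 2 or 4 kept both calls. Over the table, leaving out replicate 3 lowered the number of genes called from 5847 of 22752 to 3074 of 22857, so the loss was not particular to see1. The see1 gene has many counts, so a small spread exceeds counting error. Among the 167 genes within 10% of its mean CPM, itself included, 81.4% were called and the median coefficient of variation was 4.32%, close to its own. Among the 967 genes within 10% of the mean CPM of Atg8b, itself included, 31.9% were called and the median coefficient of variation was 4.72%. In bulk tissue, a change in the number of cells that express a gene and a change in RNA per cell cannot be told apart.

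No member passed the test of spread against genes of equal abundance. The quasi-likelihood dispersion of Atg8b was 5.07 times the trend at its abundance (edgeR adjusted p = 0.728, Benjamini-Hochberg over 22752 genes). It was the only member with an unadjusted edgeR p below 0.05, beside 1352 of the 22752 genes tested. DESeq2 called 0 of the 5 a dispersion outlier, beside 195 of 32095 genes over the table. The ratio of dispersion to trend was 1.21 for see1, 1.19 for Atg8c, 0.781 for Atg8a and 0.0777 for see2a, with an edgeR adjusted p of 0.993 or more. The test called 9 genes, or 0.0396% of the 22752 tested.

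**Figure D5:**
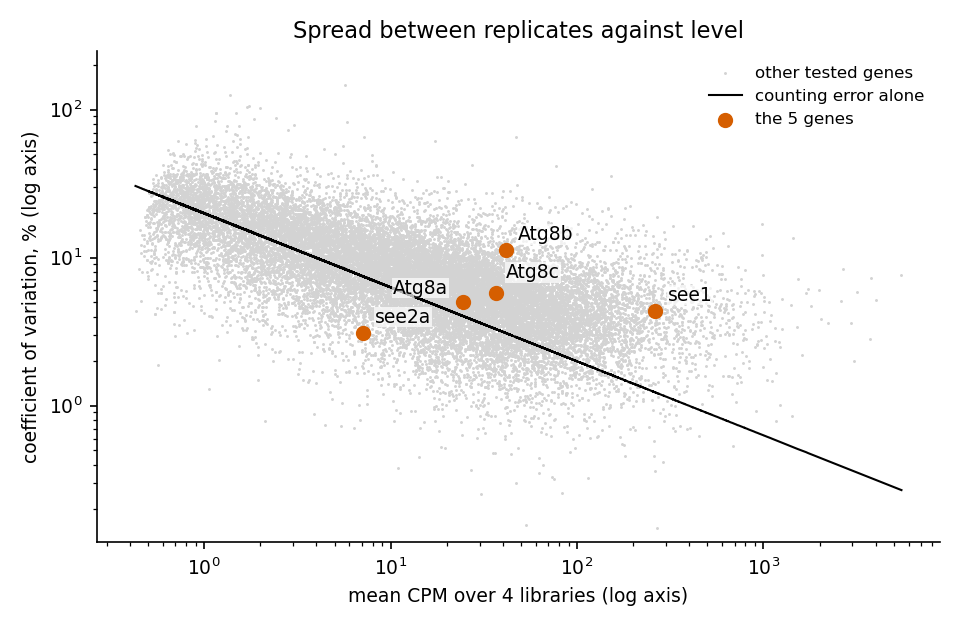
Coefficient of variation over the 4 libraries against mean CPM (log axes) for the 22752 genes tested; grey points are genes, the line is the coefficient expected from counting error alone, and the 5 genes are marked and named. Atg8b at 11.2% and see1 at 4.36% lie well above the line, and see2a at 3.09% lies below it.

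Of the 5 genes, 4 were highest in replicate 3 and see2a was lowest there. Relative to its mean over the libraries, replicate 3 was higher by 0.20 on the log2 scale for Atg8b, 0.09 for Atg8a, 0.09 for see1 and 0.07 for Atg8c, and stood at -0.05 for see2a. Among the 14 autophagy genes tested for spread, 4 were highest in replicate 3 (28.6%), namely Atg8a, Atg8b, Atg8c and atg6, against 25.8% of all genes tested. The count was 3 of 4 (75%) for papain-type proteases, namely see1, mir3 and ccp1, 3 of 7 (42.9%) for cystatins, and 0 of 2 for legumains. Atg8d and Atg8e were highest in other libraries, so a high replicate 3 was not shared by all Atg8 paralogs. Of the 5 division genes, pcna1, MCM6 and SMC3 were lowest in replicate 3, at 112, 110 and 105 CPM, cycD2 was highest there at 143 CPM, and RNRL1 was lowest in replicate 4. Their part in these differences was not tested.

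Over the lists above, with all 4 libraries, spread beyond counting error was about as frequent as among all genes tested. Of 31 list genes tested, 7 were called by the chi-square test (22.6%, against 25.7% of all genes), and 5 to 7 when any single replicate was left out. Without replicate 3, 6 of 31 list genes were called, against 3074 of 22857 genes over the table, so the list share was then the higher. The 7 genes called with all 4 libraries were Atg8b and Atg7 among the autophagy genes, see1 and mir3 among the papain-type proteases, psei2 and cc7 among the cystatins, and SnrK1. The psei2 and cc7 genes had coefficients of variation of 12.8% and 13.7%. Of these 2 cystatin genes, psei2 was highest in replicate 2 and cc7 in replicate 3, so their high libraries differed.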

How the data were processed

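The deposited values are estimated counts per gene without normalization, keyed by NCBI gene number, in 4 tables and a joint table with the same values. The submitters' processing notes name HTSeq, UMI-tools, STAR 2.7.10b, Trimmomatic (0.36 and 0.39), deepTools and SAMtools, without saying what each did. The sources used here do not give the genome build, the strand setting, whether molecule tags were collapsed or how shared reads were treated. Names came from the gene table of Zm-B73-REFERENCE-NAM-5.0, which matched 48127 gene IDs.

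CPM used library totals. Ratios used the values as deposited. For spread, values were rounded, filtered with filterByExpr and scaled by TMM, and edgeR 4.0.16 (R 4.3.3) quasi-likelihood dispersions were set against the trend in an F test of the upper tail. Dispersion outliers came from DESeq2 1.42.0. Both tests of spread were also run on simulated data. The genes planted there varied far more than any member, so those runs do not show whether a spread like that of Atg8b would be called. Exact tests used scipy 1.17.1. Members and lists were chosen with earlier results of these data known. Named genes are the members, listed genes (values for the top 3 of each list) and the 2 genes nearest each member in level. The values of SGR1, SGR2, mir1, cc7, the autophagy genes outside the top 3 and the members' neighbours in the gene table were added after they were seen. Marker genes give the tissue check. Planned ratios per coding length and protein families were not run, as no protein sequences were at hand.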

Additional observations from a re-analysis of the deposited data

How the results depend on the processing

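The 4 log2 ratios were run with a pseudocount and with rounding, the 3 Atg8 shares with rounding, the 5 levels with TMM and DESeq2 scaling, and all of them without each replicate. Each moved by less than 1 SD between replicates, and no ratio changed sign. For the runs without a replicate this bound was fixed in advance, because dropping 1 of 4 values cannot move a mean by 1 SD. The ratios of Atg8b and Atg8c to Atg8a and of see1 to see2a were positive in all 4 libraries, so dropping a replicate could not change their sign. The Atg8b to Atg8c log2 ratio was 0.125 to 0.239 with a replicate left out. Detection at 0.5 CPM or at 10 counts changed no list's count. Members varying beyond counting error numbered 2, and 1 to 2 with a replicate left out. Over the table, 5847 genes varied beyond counting error. Without replicate 3 the number was 3074, and without replicates 1, 2 and 4 it was 4563, 5193 and 4823. Genes more variable than those of equal abundance numbered 9. The number was 195 by DESeq2's outlier call, 2 with the prior fitted without robust weights and 494 where no low-count filter was applied. It was 100 without replicate 3, and 9, 2 and 3 without replicates 1, 2 and 4. No member was among these genes under any of these settings. The cause was not tested. The autophagy count of 2 genes varying beyond counting error was 1 without replicate 1 and 1 where no low-count filter was applied. The papain-type count of 2 was 1 when replicate 1 or replicate 3 was dropped and 3 when replicate 4 was. The call on SnrK1 was lost without replicate 4 and the call on see1 without replicate 3. No analysis paired between conditions was possible because the study has 1 group, and the ratios pair genes within each library. Ratios per coding length and identity-based families were not run. Depth limits see2a most, with 162 to 191 counts per library.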

Other observations

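In the order of genes in the NAM-5.0 gene table, used for names and neighbours only, Atg8b lies next to the microRNA gene MIR171b, and Atg8c is separated from MIR171c by a long noncoding RNA gene, LOC115032957. This was noticed after the table was searched. Neither microRNA gene had a count in any library, and these libraries are not made to capture mature microRNAs. No gene in that table overlaps any of the 5 members. The gene that follows see2a in the table, LOC111347722, a long noncoding RNA gene, stood at 40.7 ± 3.59 CPM (SD, n = 4), above see2a in every library. The gene before Atg8a, LOC103647707, stood at 70.4 ± 3.74 CPM and the gene before Atg8c, LOC100101528, at 28.2 ± 1.56 CPM. The gene before see1, LOC100276630, stood at 2.17 ± 0.432 CPM, and the remaining genes directly beside a member had no count in any library.

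The genes nearest each member in level over the 4 libraries, by Euclidean distance of log2(CPM + 1) among 48173 others, included LOC541694 (MYC2a) for Atg8b, at a distance of 0.112. MYC2a stood at 39.0, 40.3, 47.6 and 41.2 CPM in replicates 1 to 4. For see1 they were LOC100285734 (GRF1) and LOC541806 (cesa8), each at a distance of 0.042. For Atg8a they were LOC100273408 (0.035) and LOC100285589 (0.060), for Atg8c LOC100281304 (0.053) and LOC100280670 (0.059), for see2a LOC103654950 (0.041) and LOC100216879 (0.049), and the other gene for Atg8b was LOC107522033 (0.118). With 4 libraries of 1 group, such a distance describes levels and mostly reflects the mean.

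No library stood apart by Dixon's criterion in any of 38 sets of 4 values tried. The sets covered the members, their ratios and shares, and the detected genes of the lists. With 4 values, only a value separated from the others by most of the range can be flagged. The result therefore does not show that the libraries were alike.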
